A study of Homo sapiens with 6 samples.

Results

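The genes described here are the nuclear genes for subunits of the mitochondrial respiratory chain and the ATP synthase, taken from RNA-seq of M14 human melanoma cells. They were chosen by symbol: the NDUFA, NDUFB, NDUFC, NDUFS and NDUFV genes (complex I), SDHA to SDHD (complex II), the UQCR genes (complex III), the COX4 to COX8 genes (complex IV) and the ATP5 genes (complex V, the ATP synthase), without symbols that end in P and digits. Of 57820 genes in the table, 89 rows fitted the rule, and 4 symbols appeared in 2 rows each, of which the larger was kept. A few subunits with other symbols, such as CYC1 of complex III, are outside the rule and are described apart. The rule left 85 genes: 37 of complex I, 4 of complex II, 8 of complex III, 17 of complex IV and 19 of complex V. Among the last, ATP5J2LP has a name like that of a pseudogene, but it fitted the rule and was kept. The rule itself reads symbols only, apart from the total that chose among repeated rows.

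All cells carried the same doxycycline-inducible shRNA against STAG2, a subunit of the cohesin complex. They were grown with doxycycline (KD) or without it (WT) for 5 days, and there were 3 libraries of polyadenylated RNA per condition. The design is limited to 1 cell line and 1 shRNA. Doxycycline, an antibiotic that also acts on mitochondrial ribosomes, was given to the KD cells only, so its own effect and that of the knockdown cannot be told apart. Totals of expected counts were 24895998, 35181733 and 29157038 for the WT libraries, in the order of their replicate numbers, and 30143957, 31155103 and 33089945 for the KD libraries. The legends of the study call its replicates biologically independent, while the labels do not name separate cultures. Below, CPM are counts per 1000000 counts of the library total, scaled by edgeR's TMM factors. Values in a list follow replicates 1, 2 and 3. Adjusted p-values are those of the quasi-likelihood test of edgeR, by the Benjamini-Hochberg method over all 15605 genes tested.

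The respiratory chain passes electrons from NADH and succinate through complexes I to IV to oxygen and pumps protons across the inner mitochondrial membrane, and the ATP synthase uses the returning protons to make ATP. Most subunits are encoded in the nucleus and imported, while complexes I, III, IV and V also need a few proteins made from mitochondrial DNA, so that 2 genomes supply each of these machines. Nuclear subunit genes are broadly active housekeeping genes, and several transcription factors, among them NRF1, GABPA and YY1, are known to bind many of their promoters.

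The targeted gene was checked first. STAG2 was at 66.4, 34.7 and 28.8 CPM in WT and 15.9, 7.30 and 6.69 CPM in KD, with every KD library below every WT library. It fell by 2.12 on the log2 scale (SE 0.43, edgeR adjusted p = 0.0342). The call was lost without WT replicate 2 (adjusted p = 0.0757), WT replicate 3 (0.0652), KD replicate 2 (0.168) or KD replicate 3 (0.152), and with the replicate number as a block the adjusted p was 0.000104. The 2 libraries numbered 1 stood apart in PMEL, a melanosome protein gene, which was at 3367, 661 and 683 CPM in WT and 1253, 357 and 364 CPM in KD. WT replicate 1 alone stood apart in mitochondrially encoded transcripts, at 5.07% of all counts against 2.12% to 2.94% in the other libraries. Genes above 0 numbered 20646, 17244 and 17103 in WT and 16028, 17995 and 17622 in KD. WT replicate 1 thus had the most, with the smallest total, and KD replicate 1 the fewest.

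Expression of the subunits differed little between the conditions. Of the 85 genes, 78 passed the filter on low counts, and 1 of these, UQCRFS1, changed at an adjusted p under 0.05. That is 1.28% of the subunits tested, beside 2.59% of all tested genes (404 of 15605, with 1.75% higher in KD and 0.839% lower). With the replicate block, 1 subunit rose (UQCRFS1) and 3 fell (NDUFB2, ATP5G2 and ATP5L), which is 5.13% beside 9.52% of all genes (5.1% higher and 4.42% lower). With a correction for GC content and transcript length, UQCRFS1 and ATP5G2 were called, both without the block (3.76% of all genes) and with it (8.45%). The mean CPM of KD over WT lay between 0.67 and 1.5 for 74 of the 78 subunits. A log2 fold change of 0.5 or more in either direction was seen for 7.69% of them (6 of 78: UQCRFS1, NDUFA2, NDUFA11, NDUFB2, ATP5G2 and ATP5L) and for 39.9% of all tested genes, while the median standard error was 0.21 for subunits and 0.35 for all genes. The conditions did not overlap, with KD higher, for 4 subunits (5.13%, beside 11.8% of all genes): NDUFV2, NDUFS4, SDHB and UQCRFS1. KD was lower without overlap for 9 (11.5%, beside 10.5%): NDUFA2, NDUFB2, UQCRC1, UQCRH, UQCRQ, ATP5A1, ATP5G2, ATP5G3 and ATP5L. RNA from all cells of a culture was pooled, so fewer cells expressing a gene and less RNA per cell cannot be told apart.

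**Figure D1:**
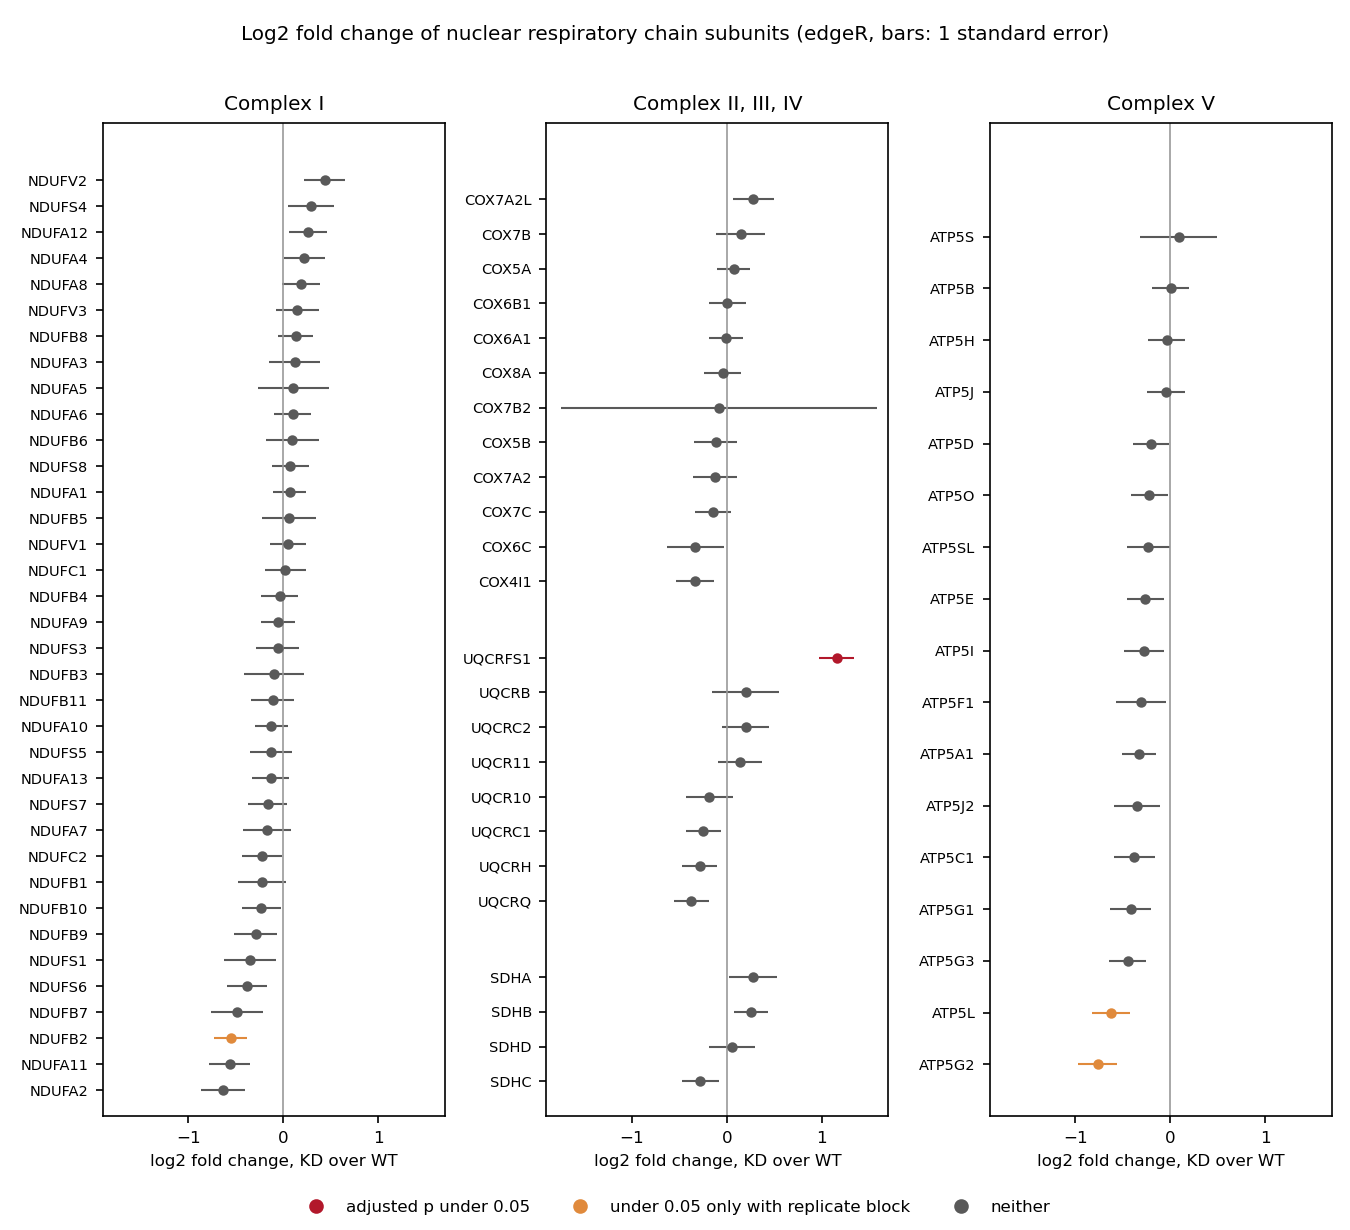
Log2 fold change of KD over WT for 77 of the 78 tested subunits, with bars of 1 standard error (x axis, log2 scale), ordered within each complex. UQCRFS1 stands alone at 1.16, ATP5G2, NDUFA2, ATP5L, NDUFA11 and NDUFB2 lie lowest, from -0.77 to -0.55, and COX7B2, at under 1 CPM, has a standard error of 1.66.

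The median log2 fold change was -0.05 over the 37 tested genes of complex I, 0.15 over the 4 of complex II, -0.02 over the 8 of complex III, -0.06 over the 12 of complex IV and -0.28 over the 17 of complex V, beside -0.03 over all genes. Over all 78 subunits it was -0.11, and 48 of them (61.5%) were below 0, beside 52% of all genes. Subunit transcripts are short, with a median length of 697 bases against 2453 bases for all tested genes. When GC content and transcript length were corrected in each library, the median of all subunits became 0.03, and those of complexes I, III and IV turned positive (0.06, 0.08 and 0.12), while complex II was at 0.20 and complex V at -0.19, beside 0.01 over all genes. Without both libraries numbered 1 the medians were -0.04, 0.07, -0.10, -0.02 and -0.31 for complexes I to V.

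Summed over the nuclear subunits chosen by symbol, complex V was at 4082, 3884 and 4862 CPM in WT and 3642, 3833 and 3656 CPM in KD. Each KD library was below each WT library there, with a ratio of means of 0.868. Complex I was at 3888, 3521 and 4478 CPM in WT and 3769, 3579 and 3547 CPM in KD (ratio 0.917), and complex IV at 2778, 2192 and 2839 CPM in WT and 2541, 2527 and 2326 CPM in KD (ratio 0.947). In both, the WT libraries spanned all KD libraries. Complex III was at 1564, 1421 and 1759 CPM in WT and 1588, 1498 and 1485 CPM in KD (ratio 0.964), and complex II, the smallest, at 541, 583 and 642 CPM in WT and 598, 639 and 602 CPM in KD (ratio 1.04), and both overlapped. The spread was wider in WT than in KD for every complex, for example an SD of 517 against 107 CPM in complex V (n = 3). WT replicate 3 was the highest WT library for 52 of the 78 subunits, 15 of the 17 of complex V among them, and WT replicate 2 was the lowest for 51. Without WT replicate 3, the log2 ratio of the complex V sums moved from -0.20 to -0.10, and that of complex III from -0.05 to 0.03. WT replicate 3 had the highest WT sum in each complex, so the ratios of complexes I, II and IV depend on it too.

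**Figure D2:**
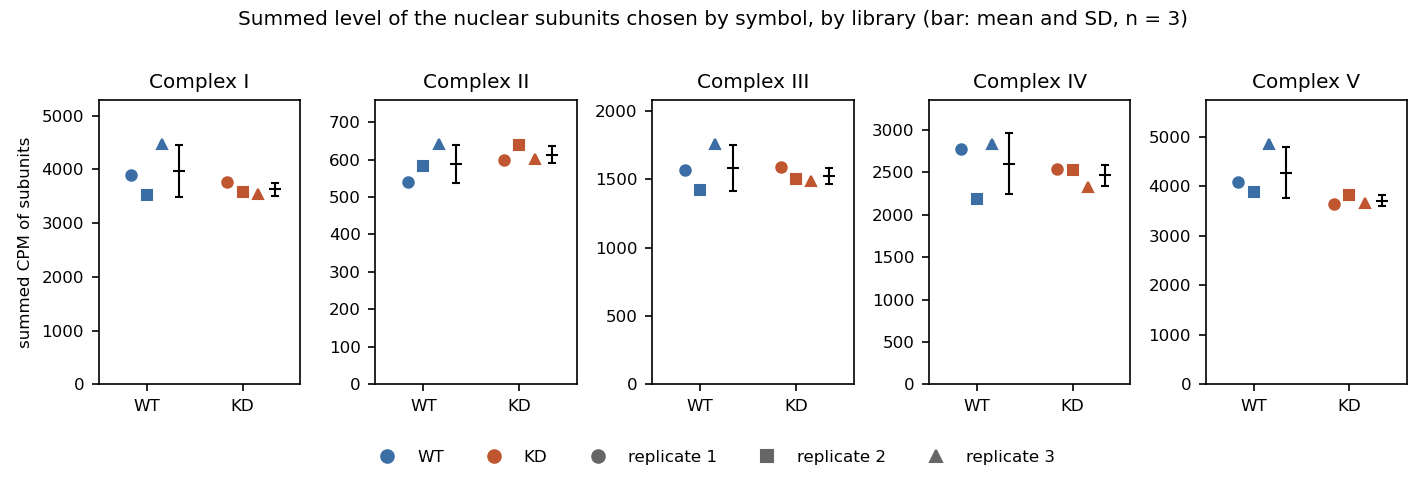
Summed CPM of the nuclear subunits chosen by symbol in each complex (y axis, CPM from 0) in each library, with the mean and SD of 3 libraries per condition. In complex V alone, the 3 KD libraries (3642 to 3833 CPM) all lie below the 3 WT libraries (3884 to 4862 CPM).

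UQCRFS1 encodes the Rieske iron-sulfur protein, the complex III subunit that takes electrons from ubiquinol and hands them to cytochrome c1. UQCRFS1 (ENSG00000169021.4, chr19:29696227-29704058 on the minus strand) was at 96.0, 93.0 and 118 CPM in WT and 216, 226 and 242 CPM in KD, where this and the gene positions given further on are on GRCh37. All 3 KD libraries lay far above all 3 WT libraries, and within a condition the libraries were close together, with means and SDs of 102 ± 13.8 CPM and 228 ± 13.4 CPM (n = 3 each). It rose (log2 fold change 1.16, SE 0.19, edgeR adjusted p = 0.0125), and the adjusted p was 0.000792 with the replicate block. The call was lost without WT replicate 2 (edgeR adjusted p = 0.0724), KD replicate 2 (0.0656) or KD replicate 3 (0.0993), with log2 fold changes from 1.09 to 1.27 over the 6 libraries left out in turn. Without both libraries numbered 1 the log2 fold change was 1.16 (adjusted p = 0.0113).

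The promoter sequences of the 4 subunit genes called in either fit are shown, because these are the members for which the 2 conditions differed in a test. They are the 250 bases before the first annotated start, 5′ to 3′ on the gene's strand, from RefSeq on GRCh38.p14, which is not the build of the count table. Capitals mark a match, on either strand, to one of 4 sequences searched: GCGC and TGCGC with any base between them (NRF1), CCGGAAGT (ETS factors such as GABPA), TGACGTCA (the cAMP response element, bound by CREB) and GCCATNTT (YY1). ATP5G2 and ATP5L are named ATP5MC2 and ATP5MG in RefSeq, and of the 3 windows of ATP5G2 the first is shown.
UQCRFS1 (chr19:29213152-29213401, minus strand): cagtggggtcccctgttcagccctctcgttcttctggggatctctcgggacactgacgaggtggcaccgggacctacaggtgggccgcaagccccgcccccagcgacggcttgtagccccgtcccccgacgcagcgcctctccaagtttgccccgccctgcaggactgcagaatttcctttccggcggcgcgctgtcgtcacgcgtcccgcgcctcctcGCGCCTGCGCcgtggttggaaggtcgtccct
NDUFB2 (chr7:140696458-140696707, plus strand): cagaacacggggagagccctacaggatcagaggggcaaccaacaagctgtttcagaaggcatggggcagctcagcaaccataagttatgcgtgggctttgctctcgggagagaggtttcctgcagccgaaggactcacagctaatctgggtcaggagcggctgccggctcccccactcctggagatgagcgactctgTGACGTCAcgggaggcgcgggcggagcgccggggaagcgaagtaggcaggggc
ATP5G2 (chr12:53676084-53676333, minus strand): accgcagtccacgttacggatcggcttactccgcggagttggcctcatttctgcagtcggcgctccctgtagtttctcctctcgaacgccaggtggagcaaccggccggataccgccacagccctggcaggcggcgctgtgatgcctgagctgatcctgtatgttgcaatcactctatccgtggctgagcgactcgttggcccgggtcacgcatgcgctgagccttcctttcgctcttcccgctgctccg
ATP5L (chr11:118401356-118401605, plus strand): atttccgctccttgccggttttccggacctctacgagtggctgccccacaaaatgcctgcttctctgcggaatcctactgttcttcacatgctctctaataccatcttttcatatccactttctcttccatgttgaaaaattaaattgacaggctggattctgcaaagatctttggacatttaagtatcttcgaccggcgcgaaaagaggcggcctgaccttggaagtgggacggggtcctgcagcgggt
UQCRFS1 has the NRF1 sequence 31 bases before its start, and a YY1 sequence only in the 50 bases after it. NDUFB2 has the cAMP response element 53 bases before its start. ATP5G2 and ATP5L hold none of the 4 in these windows.

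Over the 64 tested subunits with a RefSeq promoter, in windows of 250 bases before to 50 bases after the start, the NRF1 sequence was found in 15 (23.4%), beside 11.4% of 11129 tested genes and 6.28% of all 27305 promoters. The YY1 sequence was found in 22 subunits (34.4%), beside 9.87% of tested genes and 6.82% of all promoters. The ETS sequence was found in 9 (14.1%, beside 8.57% and 4.44%) and the cAMP response element in 5 (7.81%, beside 3.30% and 1.98%). By complex, the NRF1 sequence was in 6 of 31 promoters of complex I, 2 of 3 of complex II, 4 of 7 of complex III, 0 of 11 of complex IV and 3 of 12 of complex V. A match describes the letters only. It does not show that a factor was bound.

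The other 7 UQCR genes did not pass the test in either fit (beside 2.59% of all genes called without the block and 9.52% with it). The CPM of UQCRFS1 were 6.54%, 7% and 7.21% of the summed CPM of these 7 genes, without CYC1, in WT and 15.7%, 17.8% and 19.5% in KD. Per kilobase of transcript, UQCRFS1 was at 31.1, 30.1 and 38.3 CPM per kb in WT and 70.0, 73.3 and 78.6 CPM per kb in KD. On this per-length scale it was the lowest of the 8 genes in each WT library, and in each KD library at least 1 gene was lower: UQCR10 in all 3 (60.8, 46.6 and 49.2 CPM per kb), UQCRC2 in KD replicates 2 and 3, and UQCRB in KD replicates 2 and 3. UQCRH, the hinge protein next to cytochrome c1, was the most abundant per length in all 6 libraries (mean 528 CPM per kb).

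UQCRQ, a small membrane subunit, had the lowest log2 fold change of complex III. UQCRQ was at 253, 198 and 259.9 CPM in WT and 178, 182 and 189 CPM in KD, without overlap (log2 fold change -0.37, SE 0.19, edgeR adjusted p = 0.41). UQCRH was at 298, 286 and 351 CPM in WT and 251, 274 and 243 CPM in KD (log2 fold change -0.28, SE 0.18, edgeR adjusted p = 0.56). UQCRC1, one of the large core proteins, was at 575, 609 and 704 CPM in WT and 545, 522 and 522 CPM in KD (log2 fold change -0.25, SE 0.19, edgeR adjusted p = 0.635), also without overlap. The second core protein, UQCRC2, was at 112, 65.0 and 77.1 CPM in WT and 120.0, 87.5 and 83.5 CPM in KD, where the libraries numbered 1 were the highest of each condition. UQCRB, UQCR10 and UQCR11 had log2 fold changes of 0.20, -0.18 and 0.14 and overlapping conditions.

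**Figure D3:**
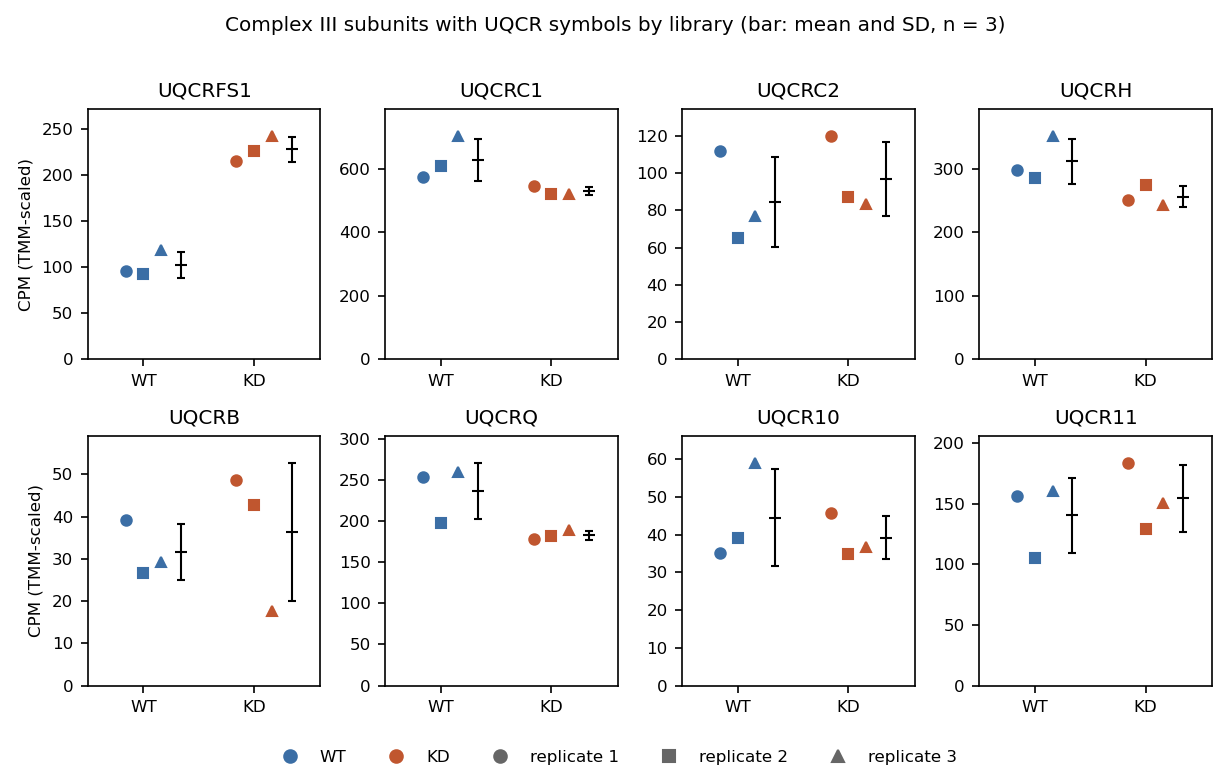
CPM of the 8 UQCR genes of complex III in each library (y axis from 0, own scale per gene), with the mean and SD of 3 libraries per condition. UQCRFS1 is at 93.0 to 118 CPM in WT and 216 to 242 CPM in KD, and the other 7 genes show no gap of that size.

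Reads that fit a processed copy can be divided between it and the parent gene. The copy UQCRFS1P1 on chromosome 22 held 249, 249 and 264 expected counts in WT and 882, 524 and 752 in KD, so the copy, too, was higher in each KD library than in each WT library. With the counts of both rows added, the log2 fold change of UQCRFS1 was 1.17 (edgeR adjusted p = 0.011). The 7 other tested genes within 1 Mb did not pass the test without the block: VSTM2B (0.93), C19orf12 (0.70), CTC-525D6.1 (0.62), POP4 (0.31), CCNE1 (0.26), PLEKHF1 (0.11) and URI1 (-0.19), each as log2 fold change. C19orf12, whose gene lies 486 kb away, passed with the block (edgeR adjusted p = 0.0476 against 0.176 without it, and 0.0881 with the block and the GC and length correction) and was at 24.0, 20.7 and 23.6 CPM in WT and 45.8, 30.2 and 34.9 CPM in KD.

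Factors that assemble the Rieske protein into complex III did not pass the test in either fit. BCS1L, the membrane translocase that inserts it, was at 59.7, 62.6 and 64.7 CPM in WT and 57.8, 45.2 and 45.9 CPM in KD, with each KD library below each WT library (log2 fold change -0.33, SE 0.19, edgeR adjusted p = 0.49). LYRM7, its chaperone in the matrix, was at 16.3, 5.74 and 5.33 CPM in WT and 8.42, 5.46 and 2.59 CPM in KD, high in WT replicate 1. TTC19, which clears fragments of the Rieske protein, was at 42.5, 33.9 and 45.1 CPM in WT and 37.5, 33.3 and 31.9 CPM in KD. Of the 6 complex III assembly factors, 5 had a log2 fold change below 0 (median -0.31). In the fits without and with the block 0 were called, beside 2.59% and 9.52% of all genes. At an unadjusted p under 0.05 there were also 0, beside 14.8% of all genes.

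Complex V had the lowest median of the 5 complexes. The membrane c ring, the rotor turned by protons, is built of 1 protein encoded by the 3 genes ATP5G1, ATP5G2 and ATP5G3. ATP5G2 (ENSG00000135390.13, chr12:54026510-54071192 on the minus strand) was at 256, 273 and 340.1 CPM in WT and 142, 197 and 171 CPM in KD. The conditions did not overlap, and the log2 fold change was -0.77 (SE 0.21, edgeR adjusted p = 0.102). ATP5G2 fell with the replicate block (adjusted p = 0.0117), with the GC and length correction (0.0312), with no filter (0.0303), and in DESeq2 (0.0127, a test that called 6.28% of all genes). ATP5G2 was not called in limma-voom (adjusted p = 0.0803). Nor was it called in edgeR with upper-quartile (0.0792) or DESeq2 scaling (0.11), or with at least 10 counts in every library (0.0755). The edgeR adjusted p was 0.0608 without both libraries numbered 1, and 0.0631 to 0.348 with 1 library left out. ATP5G3, the most abundant of the 3 in CPM per kb (433), was at 436, 355 and 473 CPM in WT and 298, 304 and 322 CPM in KD, also without overlap (log2 fold change -0.45, SE 0.19, edgeR adjusted p = 0.31, 0.0815 with the block). ATP5G1 was at 135, 113 and 183 CPM in WT and 111, 113 and 98.8 CPM in KD, where KD replicate 2 was level with WT replicate 2 (log2 fold change -0.42, SE 0.22, edgeR adjusted p = 0.43).

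ATP5L encodes subunit g, a small membrane subunit at the interface of ATP synthase dimers. ATP5L (ENSG00000167283.3, chr11:118272061-118303993 on the plus strand) was at 226, 194 and 259 CPM in WT and 159, 158 and 124 CPM in KD, without overlap (log2 fold change -0.62, SE 0.20, edgeR adjusted p = 0.164). It fell with the block (edgeR adjusted p = 0.0477) but did not pass with the block and the GC and length correction together. The opposite-strand gene RP11-770J1.5 overlaps it, with means of 297 counts (WT) and 131 counts (KD), and the library kit keeps strand, but the strand setting of the counting is not given in the sources used here. ATP5I and ATP5J2, the membrane subunits e and f, had log2 fold changes of -0.28 and -0.36 and did not pass the test. With 1 library left out, ATP5I ranged from -0.39 to -0.09 and ATP5J2 from -0.50 to -0.08.

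In the catalytic F1 head, ATP5B, the beta subunit that carries the catalytic sites, was the most abundant subunit of all per length (1042 CPM per kb). ATP5B was at 1702, 1778 and 2014 CPM in WT and 1716, 1912 and 1874 CPM in KD, with overlapping conditions and a log2 fold change of 0.00 (SE 0.19). ATP5A1, the alpha subunit that alternates with it in the head, was at 268, 219 and 256 CPM in WT and 199.9, 191 and 198 CPM in KD, lower in each KD library (log2 fold change -0.33, SE 0.18, edgeR adjusted p = 0.447). The gamma, delta and epsilon genes ATP5C1, ATP5D and ATP5E had log2 fold changes of -0.38, -0.21 and -0.26. The peripheral stalk genes ATP5F1, ATP5O, ATP5J and ATP5H were at -0.31, -0.23, -0.05 and -0.04. ATP5S, at 8.36, 3.85 and 8.46 CPM in WT and 7.93, 8.04 and 6.03 CPM in KD, had the highest value of the group (0.09, SE 0.40). Below 0 were 15 of the 17 genes (88.2%, beside 52% of all genes), and 13 with the GC and length correction (beside 7638 of 15605). Of the 17, 0 were called without the block (beside 2.59% of all genes) and 2 with it (11.8%, beside 9.52%). At an unadjusted p under 0.05 there were 3 (beside 14.8%). Within replicate number 3 all 17 ratios of KD to WT were below 1, and within replicate number 2 they lay on both sides of 1. This was not particular to complex V. Within replicate number 3 the ratios were also below 1 for every tested gene of complex IV but COX7A2L, and for most of complex I. WT replicate 3 was the highest WT library for 52 of the 78 subunits. ATP5SL, which the symbol rule took in, is known as an assembly factor of complex I and not as a subunit of the ATP synthase, and had a log2 fold change of -0.23. The median of the other 16 genes was -0.29.

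**Figure D4:**
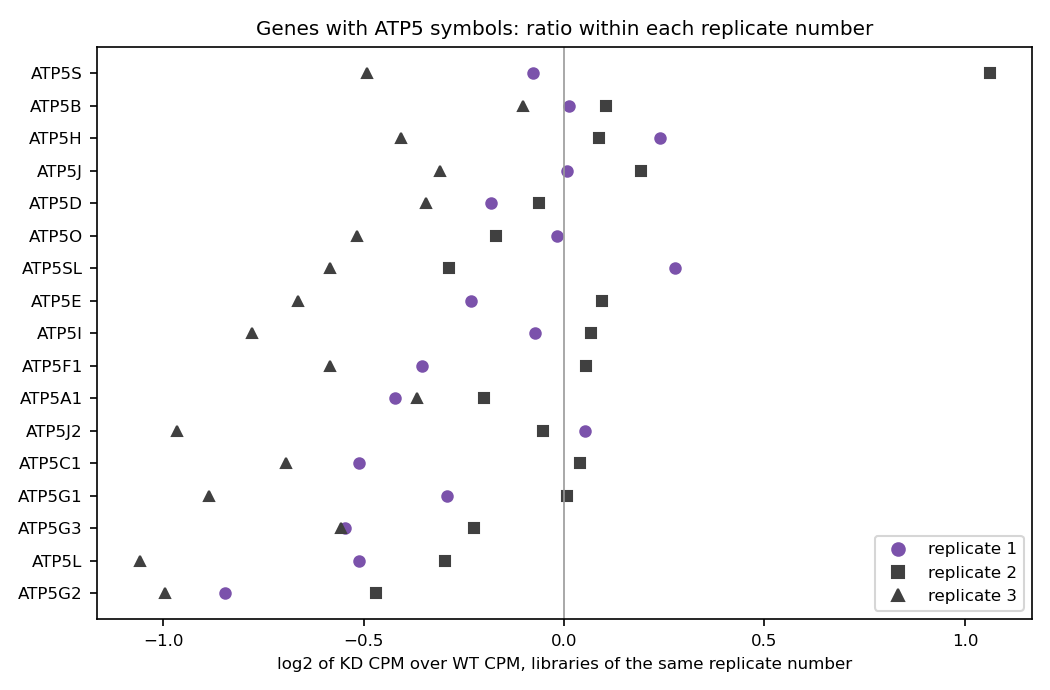
Log2 ratio of KD to WT CPM (x axis) for the 17 tested genes with ATP5 symbols (y axis), 1 symbol per replicate number. Replicate 3 gives the lowest ratio for most genes, and for ATP5G2, ATP5L, ATP5G3, ATP5A1, ATP5D and ATP5O all 3 ratios are below 0.

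Complex I, the NADH dehydrogenase, had 0 called genes of 37 without the block and 1 with it (0% and 2.7%, beside 2.59% and 9.52% of all genes). At an unadjusted p under 0.05 there were 3 of the 37, beside 14.8% of all genes. NDUFB2 (ENSG00000090266.8, chr7:140390577-140422590 on the plus strand), an accessory subunit of the membrane arm, was at 181, 155 and 179.8 CPM in WT and 116, 124 and 111 CPM in KD, without overlap (log2 fold change -0.55, SE 0.18, edgeR adjusted p = 0.162), and fell with the block (edgeR adjusted p = 0.0447) but not with the block and the GC and length correction together. NDUFB2 overlaps ADCK2 on the same strand and BRAF on the other. NDUFA2, an accessory subunit of the matrix arm, had the lowest log2 fold change and was at 99.2, 71.0 and 128 CPM in WT and 69.6, 62.6 and 59.7 CPM in KD (log2 fold change -0.63, SE 0.23, edgeR adjusted p = 0.227). WT replicate 3 was high for this gene, and the conditions did not overlap. NDUFA11, a membrane-arm subunit, was at 279, 182 and 267 CPM in WT and 184, 163 and 145 CPM in KD (log2 fold change -0.57, SE 0.22, edgeR adjusted p = 0.256), where KD replicate 1 was above WT replicate 2.

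The 7 nuclear core subunits of complex I, among them those that carry the flavin and the iron-sulfur clusters, had a median log2 fold change of 0.05, and the 30 accessory subunits -0.08. The 30 include NDUFA4, which was placed in complex I by its symbol. NDUFV2, a core protein of the NADH-oxidising module, had the highest value of the complex. NDUFV2 was at 75.1, 72.2 and 76.1 CPM in WT and 131, 83.6 and 87.7 CPM in KD, where KD replicate 1 stood above the other 2 KD libraries (log2 fold change 0.44, SE 0.22, edgeR adjusted p = 0.397), and it has a copy, NDUFV2P1, at 99.5 to 229 expected counts per library. NDUFV1, its flavin-binding partner, was at 230.5, 285 and 299 CPM in WT and 258, 289 and 296 CPM in KD, with overlap. NDUFS1, the largest subunit of the matrix arm, was at 93.8, 48.3 and 49.9 CPM in WT and 53.7, 49.1 and 47.5 CPM in KD, high in WT replicate 1. NDUFB9, the most abundant of complex I per length (436 CPM per kb), had a log2 fold change of -0.29 (adjusted p = 0.652 by edgeR). This value was -0.11 without WT replicate 3 and -0.44 without WT replicate 2. NDUFS4, an accessory subunit of the matrix arm, was at 23.7, 16.4 and 24.3 CPM in WT and 26.3, 26.7 and 25.8 CPM in KD, without overlap (log2 fold change 0.29, SE 0.24, edgeR adjusted p = 0.67). The remaining complex I genes ranged from NDUFB7 (-0.49) to NDUFA12 (0.26) in log2 fold change, all with overlapping conditions.

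Complex II, succinate dehydrogenase, is the only complex of the chain made wholly from nuclear genes and is also an enzyme of the TCA cycle. SDHB, the iron-sulfur subunit, was at 135, 143 and 159 CPM in WT and 188, 163 and 171 CPM in KD, higher in each KD library (log2 fold change 0.25, SE 0.18, edgeR adjusted p = 0.605). SDHA, the flavoprotein, was at 135, 200.2 and 175 CPM in WT and 142, 254 and 221 CPM in KD (log2 fold change 0.27, SE 0.25, edgeR adjusted p = 0.724), with overlap. SDHA has copies that may share its reads, of which SDHAP1 held 189, 295 and 211 expected counts in WT and 359, 305 and 412 in KD. The membrane anchors SDHC and SDHD were at log2 fold changes of -0.28 and 0.06, and SDHC was the most abundant of the 4 per length (457 CPM per kb). None of the 4 passed the test in either fit (beside 2.59% and 9.52% of all genes), 0 had an unadjusted p under 0.05 (beside 14.8%), and DESeq2 called 0 (beside 6.28%).

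Complex IV, cytochrome c oxidase, had 0 called genes of 12 tested, with and without the block (beside 9.52% and 2.59% of all genes). It had 0 at an unadjusted p under 0.05 (beside 14.8%), 0 in DESeq2 (beside 6.28%) and 0 without overlap (beside 11.8% higher and 10.5% lower), and over 12 genes such shares amount to few genes. COX4I1, a regulatory subunit, had the lowest log2 fold change, at 542, 385 and 517 CPM in WT and 381, 386 and 375 CPM in KD (log2 fold change -0.34, SE 0.20, edgeR adjusted p = 0.503), and its 3 KD libraries were close to WT replicate 2. COX7A2L, known as a factor of supercomplex assembly, had the highest, at 182, 111 and 149 CPM in WT and 193, 183 and 160.0 CPM in KD (log2 fold change 0.28, SE 0.22, edgeR adjusted p = 0.655). COX5B was the most abundant of the complex per length (584 CPM per kb), at 489, 318 and 451 CPM in WT and 461, 347 and 350.1 CPM in KD. COX6A1 and COX6B1 had log2 fold changes of -0.01 (SE 0.18) and 0.01 (SE 0.19), and the remaining 6 besides COX7B2 ranged from COX6C (-0.33) to COX7B (0.15). The median level per length of the tested genes was 394 CPM per kb in complex IV, 166 in complex V, 130 in complex III, 122 in complex II and 101 in complex I.

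Tissue-restricted forms of complex IV subunits were at or near 0 in these cells. COX4I2 of lung, COX6A2 of heart and muscle and COX8C of testis were at 0 counts in all 6 libraries, which allows up to 0.0869 to 0.112 CPM per library by the limit of 3 counts (counting error only), and so were ATP5L2 and ATP5J2LP. COX7A1, the heart and muscle form, held 7, 0 and 9 counts in WT and 0, 0 and 1 in KD, and COX6B2, of testis, 15.4, 8.23 and 8.66 counts in WT and 0, 32.8 and 0 in KD. These 7 genes did not pass the filter on low counts and were not tested. COX7B2 did, at 13, 10 and 12 counts in WT and 0, 23 and 12 in KD, and its log2 ratio to COX7B differed by -1.44 between the conditions, or by 0.24 without KD replicate 1 (two-sided exact permutation p = 1 with all libraries).

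NDUFA4, named as a complex I gene and since known as a subunit of complex IV, has a low-abundance relative, NDUFA4L2, that is induced by hypoxia. NDUFA4 was at 81.1, 53.9 and 80.8 CPM in WT and 84.3, 92.9 and 74.7 CPM in KD, with overlap. NDUFA4L2 held 39, 13 and 9 counts in WT and 61, 125 and 88 in KD, higher in each KD library (log2 fold change 2.03, SE 0.87, edgeR adjusted p = 0.314). The log2 ratio of NDUFA4L2 to NDUFA4 was -5.79, -7.11 and -7.87 in WT and -5.46, -4.45 and -4.79 in KD, a difference of 2.02 with a two-sided exact permutation p of 0.1, the smallest that 3 against 3 libraries allow (0.2 adjusted over the 2 ratios tested).

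Of the 7 subunits and carriers outside the symbol rule, 0 were called in either fit (beside 2.59% of all genes without the block and 9.52% with it). NDUFA4L2 was the 1 of the 7 at an unadjusted p under 0.05, beside 14.8% of all genes. CYC1, cytochrome c1, the partner of the Rieske protein in complex III, was at 634, 384 and 511 CPM in WT and 427, 338 and 373 CPM in KD (log2 fold change -0.43, SE 0.23, edgeR adjusted p = 0.45). CYCS, the cytochrome c that carries electrons from complex III to complex IV, was at 91.9, 87.5 and 111 CPM in WT and 152, 102 and 121 CPM in KD (log2 fold change 0.37, SE 0.21, edgeR adjusted p = 0.472). Both overlapped between the conditions, and their log2 fold changes had opposite signs.

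Among 51 assembly factors, 1 rose and 0 fell (1.96%, beside 2.59% of all genes), with a median log2 fold change of -0.05. COX10, which makes the heme O precursor of the heme A of complex IV, was at 24.3, 21.1 and 23.5 CPM in WT and 43.1, 43.7 and 53.6 CPM in KD. No KD library was as low as any WT library, and it rose (log2 fold change 1.03, SE 0.20, edgeR adjusted p = 0.0327, 0.00558 with the block). The gene COX10-AS1 overlaps it on the opposite strand, with means of 117 counts (WT) and 102 counts (KD), and the same limit on strand holds. The call was lost on leaving out any library but WT replicate 1, with edgeR adjusted p-values up to 0.21. COX15, which makes heme A from the product of COX10, was at 25.3, 24.9 and 27.1 CPM in WT and 27.7, 23.8 and 16.8 CPM in KD, with overlap. SURF1, which acts early in COX1 maturation, was at 30.5, 33.5 and 40.8 CPM in WT and 24.7, 26.8 and 24.1 CPM in KD (log2 fold change -0.47, SE 0.21, edgeR adjusted p = 0.345), lower in each KD library. For the complexes the medians were 0.11 (15 factors of complex I), 0.19 (4 of complex II), -0.31 (6 of complex III), -0.05 (23 of complex IV) and -0.11 (3 of complex V).

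The 13 subunits encoded in mitochondrial DNA had a median log2 fold change of -0.24, and 0 were called without the block (beside 2.59% of all genes). At an unadjusted p under 0.05 there were 2 of the 13, beside 14.8% of all genes. Without both libraries numbered 1 the median was 0.05. MT-CO3, a core subunit of complex IV, was at 4698, 2324 and 3379 CPM in WT and 1823, 2179 and 1858 CPM in KD, without overlap (log2 fold change -0.83, SE 0.27, edgeR adjusted p = 0.174), and fell with the block (adjusted p = 0.0432 by edgeR), the 1 called of the 13 there (7.69%, beside 9.52% of all genes). MT-CYB, cytochrome b of complex III, was at 2473, 1093 and 1223 CPM in WT and 832, 1233 and 998 CPM in KD, and MT-ATP6, of the proton channel of the ATP synthase, at 2683, 1278 and 1676 CPM in WT and 1509.8, 2409.6 and 1787 CPM in KD. For all 3, WT replicate 1 was the highest library. The part of that library's share of mitochondrial counts in these values was not tested.

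Of 16 regulators of mitochondrial gene expression, 0 were called without the block (beside 2.59% of all genes) and 1 rose with it (6.25%, beside 9.52%). At an unadjusted p under 0.05 there were 3 of the 16, beside 14.8% of all genes. The median log2 fold change was -0.09, and 9 of the 16 were below 0 (beside 52% of all genes). Without overlap, 3 of the 16 were higher in KD (beside 11.8% of all genes) and 0 lower (beside 10.5%). ESRRA, the orphan receptor ERR alpha that activates many oxidative genes, was at 137, 102 and 118 CPM in WT and 232, 138 and 179 CPM in KD, without overlap by a narrow margin (log2 fold change 0.62, SE 0.23, edgeR adjusted p = 0.235, 0.0283 with the block, 0.0776 with the block and the GC and length correction). The coactivator gene PPRC1 was at 43.7, 59.9 and 59.7 CPM in WT and 65.4, 86.1 and 78.5 CPM in KD and POLRMT, the mitochondrial RNA polymerase, at 94.6, 128 and 108 CPM in WT and 153, 158 and 136 CPM in KD, both higher in each KD library and neither passing the test. The transcription factor gene NRF1 was at 14.6, 25.5 and 23.6 CPM in WT and 15.5, 21.1 and 11.7 CPM in KD (log2 fold change -0.40, SE 0.32, edgeR adjusted p = 0.66), and YY1 at 59.1, 60.5 and 47.8 CPM in WT and 54.5, 55.7 and 56.5 CPM in KD (log2 fold change -0.01, SE 0.19, edgeR adjusted p = 0.993). PPARGC1A, the coactivator PGC-1 alpha, was at 7.26, 1.39 and 1.82 CPM in WT and 1.24, 1.59 and 1.19 CPM in KD, where WT replicate 1 alone was high.

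Of 17 genes of the TCA cycle and pyruvate dehydrogenase, 1 fell and 0 rose without the block, and 1 more rose with it (5.88% and 11.8%, beside 2.59% and 9.52% of all genes). IDH2, the NADP-dependent isocitrate dehydrogenase of mitochondria, was at 83.2, 92.9 and 102 CPM in WT and 44.7, 54.5 and 41.3 CPM in KD. The KD libraries were all below the WT libraries, and the log2 fold change was -0.98 (SE 0.19, edgeR adjusted p = 0.0321, 0.00502 with the block). As for COX10, the call was lost without any library but WT replicate 1 (adjusted p up to 0.196). OGDH, of the 2-oxoglutarate dehydrogenase complex, was at 124, 183 and 163 CPM in WT and 202, 254 and 232 CPM in KD, without overlap (log2 fold change 0.55, SE 0.21, edgeR adjusted p = 0.246), and rose with the block (adjusted p = 0.0329) but not with the block and the GC and length correction together (0.101). The NAD-dependent isocitrate dehydrogenase genes IDH3A, IDH3B and IDH3G had log2 fold changes of 0.47, -0.06 and -0.02 and did not pass the test.

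**Figure D5:**
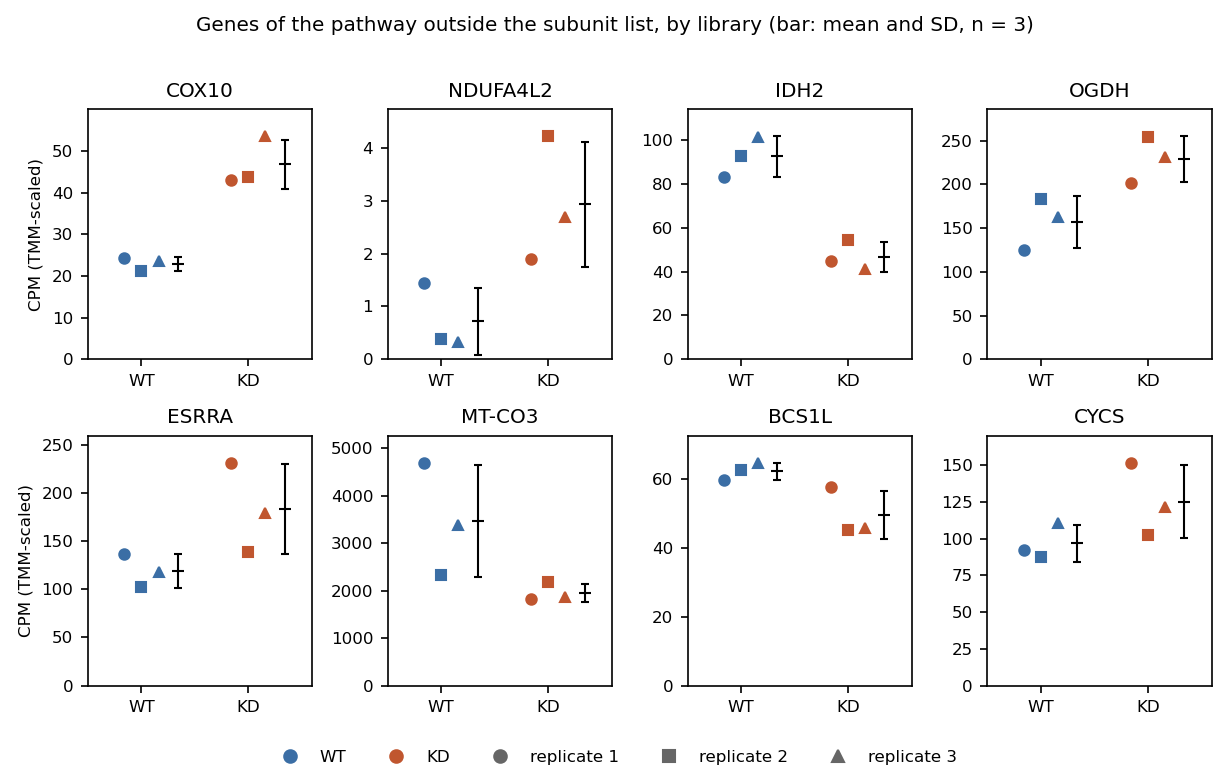
CPM of 8 genes of the pathway outside the subunit list in each library (y axis from 0, own scale per gene), with the mean and SD of 3 libraries per condition. COX10 (21.1 to 24.3 CPM in WT, 43.1 to 53.6 CPM in KD) and IDH2 (83.2 to 102 CPM in WT, 41.3 to 54.5 CPM in KD) are the 2 that passed the test without the block, and the panels were chosen after the values were seen.

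Markers of the cell type were also examined. All 8 melanocyte lineage genes examined were expressed in this melanoma line, and their summed CPM were 6304, 1914 and 1860 in WT and 2604, 1266 and 1194 in KD, with PMEL the most abundant and the 2 conditions overlapping. S100B fell (144, 106 and 101 CPM in WT and 47.3, 49.4 and 40.8 CPM in KD, log2 fold change -1.35, SE 0.21, edgeR adjusted p = 0.00949), a call lost without KD replicate 2 (edgeR adjusted p = 0.0555) or KD replicate 3 (0.0865), and was the 1 called of the 8 without the block (12.5%, beside 0.839% of all genes called lower and 2.59% in either direction). With the block 6 of the 8 fell (beside 4.42% of all genes): S100B, SOX10 (edgeR adjusted p = 0.0123 against 0.151 without it), PMEL (0.00179 against 0.462), DCT (0.00109 against 0.398), TYRP1 (0.00191 against 0.491) and MLANA (0.0275 against 0.796). With the block and the GC and length correction together, MLANA did not pass (0.132). The remaining markers, MITF and TYR, were called in neither fit. Of the 8, 7 had a log2 fold change below 0 and 1 above it, at 0.35. SOX10 was at 572, 670.4 and 613 CPM in WT and 324, 473 and 366 CPM in KD, without overlap. Of 11 markers of other cell types found, the T cell gene CD3E was at 0 in every library and PTPRC, of leukocytes, in all but WT replicate 3 (0.582 CPM). CD68, a lysosomal glycoprotein gene used as a macrophage marker, rose (25.3, 39.0 and 36.2 CPM in WT and 125, 88.8 and 88.3 CPM in KD, log2 fold change 1.59, SE 0.24, edgeR adjusted p = 0.00855), and COL1A1, a collagen gene, fell with the block but not without it (2.65, 85.0 and 58.0 CPM in WT and 1.40, 19.3 and 17.7 CPM in KD, log2 fold change -1.92, SE 1.06, edgeR adjusted p = 0.462, 0.00232 with the block). Of these markers 6 were tested, with a median log2 fold change of -0.81 and 4 below 0. CD68 was the 1 called without the block (16.7%, beside 2.59% of all genes). With it 2 were called (33.3%, beside 9.52%). The summed CPM of the 11 were 33.2, 133 and 100.5 in WT and 129, 115 and 114 in KD. The part of these differences in the values of the respiratory chain genes was not tested.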

How the data were processed

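RNA-seq of 6 libraries of M14 cells (3 WT, 3 KD) was used, grouped by the labels. The deposited values are expected counts of each gene, for which the submitters' processing notes name STAR, RSEM and hg19, and they were neither scaled nor filtered by the authors. RSEM divides reads that fit several genes, so the counts are estimates, and intervals and floors cover counting error only. Replicates were not pooled.

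Expected counts were rounded, and all genes were tested in R 4.3.3 with edgeR 4.0.16 (filterByExpr, TMM, quasi-likelihood test, no block), with Benjamini-Hochberg adjusted p-values and a threshold of 0.05. Level per kb used the median length of protein-coding transcripts in a GRCh37 annotation. The same-numbered WT and KD libraries deviated together from their group means (r = 0.565, 0.454 and 0.355 over 8926 genes with a mean of at least 10 CPM), and of the differently numbered pairs WT 2 with KD 3 (0.275) and WT 3 with KD 2 (0.149) were also positive. By the rule that each same-numbered r be over 0.1, the numbers were taken as pairs and a replicate block was also fitted. Matching WT 2 with KD 3 and WT 3 with KD 2 would also meet that threshold, so it does not single out this pairing. Alternatives were DESeq2 1.42.0, limma-voom (limma 3.58.1), upper-quartile and DESeq2 scaling, no filter, at least 10 counts in every library, no rounding, a GC and length correction (mgcv 1.9.3) without and with the block, an adjusted p under 0.01 and leaving out each library. Those added after the values were seen were leaving out both libraries numbered 1, adding the counts of named pseudogenes and all alternatives of the summed levels. Methods were tested on simulated data. The members and lists were chosen with earlier results of these data known. The rule for named genes took members called in either fit, the highest, lowest and most abundant per length of each complex, and called genes of the lists (at most 5 each), and other genes named were chosen after their values were seen. The second rows of repeated symbols were left out, among them a row of UQCR11 with 228 counts in WT replicate 2. The values of 1 member are not reported singly here, but it stayed in every count, sum, median and test.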

Additional observations from a re-analysis of the deposited data

How the results depend on the processing

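The number of subunits called was 1 in the fit reported. It was 4 with the replicate block, 2 with DESeq2, with no filter on low counts, with the GC and length correction and with that correction and the block together (ATP5G2 and UQCRFS1 each time), and 0 at an adjusted p under 0.01. Leaving out 1 library gave 0 to 1. The number of all genes called was 404 in the fit reported, 1486 with the block, 979 with DESeq2, 1103 with no filter, and 121 to 531 with 1 library left out. The log2 fold change of STAG2 ranged from -2.63 to -1.68 with 1 library left out, with adjusted p-values up to 0.168. The median of complex II, 0.15, ranged from 0.0155 to 0.172 with 1 library left out and was 0.07 without both libraries numbered 1. The median of complex IV, -0.06, was 0.12 with the GC and length correction and 0.10 with that correction and the block. Without WT replicate 3 the medians of complexes I and III were 0.02 and 0.10, and without KD replicate 1 that of complex IV was 0.00209. Others moved down: without WT replicate 2 the medians of complexes III and IV were -0.15 and -0.19. Without KD replicate 1 that of complex III was -0.16, and without KD replicate 2 that of complex I was -0.09. The median of complex V stayed below 0 in all alternatives run, from -0.39 to -0.16. The causes of these shifts were not tested. Beside the calls named in the report, the replicate block changed no call of a named gene. Depth was 24895998 to 35181733 counts per library, so genes at a few counts, such as COX7B2, carry wide errors.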
